A study of Mus musculus with 6 samples.

Results

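The genes described here move calcium and magnesium across epithelial cells. They are 10 genes chosen by name from the 56748 genes of the deposited tables, namely the TRPV channels *Trpv4*, *Trpv5* and *Trpv6*, the TRPM channels *Trpm6* and *Trpm7*, the calcium-binding proteins *S100g*, *Calb1* and *Calb2*, and the plasma membrane calcium pumps *Atp2b1* and *Atp2b4*. All 10 symbols matched exactly 1 gene identifier each. In an epithelium that moves calcium from one side to the other, the ion enters through apical channels of the TRPV family, crosses the cytoplasm bound to calbindins, and leaves through basolateral pumps and exchangers. Magnesium enters through TRPM6 and TRPM7, which are ion channels joined to a protein kinase. In the rodent uterus *S100g*, *Calb1* and *Trpv6* are known as genes that respond to estrogen (E2) and progesterone (P4).

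The data are RNA-seq of uteri collected at 1600 h on day 4 of pregnancy, 3 from control and 3 from *Gp130* ecKO females, after mating with a fertile wildtype male. The *Gp130* ecKO females had an *Ltf*-iCre allele, which acts in the uterine epithelium of adult females, and *Gp130* (*Il6st*) floxed on both copies. *Gp130* encodes the receptor subunit shared by LIF and other cytokines of the interleukin 6 family. The labels call the control females WT, and the study's methods describe controls as females with floxed *Gp130* and no iCre or as wildtype females, so the alleles of each control uterus are not known. The labels give the strain as C57BL/6, and the study's methods give the background as C57BL/6J. The labels give the tissue as uterus and do not say how the muscle layer was treated, and markers of smooth muscle were found in every library. The labels number the uteri and do not state that each came from a separate female, so the p-values measure the spread between these samples.

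Total expected counts per uterus ranged from 13960748 in control 3 to 25906443 in control 2. Values are given as CPM, which are counts scaled to library size and TMM factors, with SD over 3 uteri. Values of *Gp130* ecKO uteri are always listed in the order of their numbers 1, 2 and 3. *Il6st* was at 452 to 678 CPM in the control uteri and at 349.8 to 388 CPM in *Gp130* ecKO, a log2 difference of −0.68 (adjusted p = 0.12 by the quasi-likelihood test of edgeR). In a multidimensional scaling of all tested genes control 2 stood apart from the other controls on the first dimension, at 0.03 against 2.08 and 2.09. The *Gp130* ecKO uteri lay between −1.47 and −1.32 there. On the second dimension controls 1 and 3 were the farthest apart of all uteri, at 1.70 and −1.61, with control 2 between them at −0.28. All 3 controls thus differed from each other. *Il6st* was at 678 CPM in control 2, the highest of all uteri. The labels alone place control 2 in its group, and whether it differs from the other controls in anything but these values was not tested. Calls that changed without control 2 are given below. The summed level of 8 epithelial markers was 1933 to 2861 CPM in the control and 4127 to 5915 CPM in *Gp130* ecKO, and 4 of the 8 had an unadjusted p below 0.05, all higher (*Krt7*, *Krt8*, *Krt19* and *Cdh1*). The sum of 8 stromal markers was 4096 to 5042 CPM in the control and 2195 to 2926 CPM in *Gp130* ecKO, with 6 of the 8 lower at that p. All 4 endothelial markers were lower at that p, with sums of 300 to 725 CPM in the control and 168 to 302 CPM in *Gp130* ecKO, which overlapped. The sums of gland markers (146 to 1109 CPM in the control and 209 to 8764 CPM in *Gp130* ecKO), smooth muscle markers (568 to 2781 and 475 to 2994 CPM) and immune markers (53 to 93 and 33 to 75 CPM) overlapped between the groups. None of these 39 markers was at 0 in any library. In whole tissue, a change in the number of cells of a type and a change in RNA per cell cannot be told apart, and the part of these marker differences in the results below was not tested.

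Of the 10 genes, 8 passed the filter on low counts and were tested, and *Trpv5* and *Calb2* fell under it. At a false discovery rate (FDR) below 0.05 with more than 2-fold change, edgeR's quasi-likelihood test called 0 of the 8, where it called 0.157% of the 16605 genes tested, 0.126% higher and 0.0301% lower. At an unadjusted p below 0.05 there were 4 of the 8, *Trpv4* and *Calb1* higher and *Trpv6* and *Trpm6* lower in *Gp130* ecKO. Among all tested genes 25% had such a p, 12.1% higher and 12.9% lower. For 2 of the 8 the groups had no overlap in CPM, *Trpm6* and *Calb1*, and this held for 31.3% of all tested genes, 15.7% with *Gp130* ecKO above the control and 15.6% below. The median log2 fold change of the 8 was 0.10, beside −0.05 over all tested genes. When single uteri were left out, the median of the members tested then lay between 0.01 (without control 2) and 0.19 (without control 1). Without control 2 this was a median of 9 genes, *Trpv5* included, and without control 1 of the same 8. The fits without 1 of the *Gp130* ecKO uteri also held *Trpv5*. Without control 1, 1 of the 8 was higher (*Calb1*) and 1 lower (*Trpm6*) at an unadjusted p below 0.05. Without control 2, 2 were higher and 3 lower at that p, *Trpv5* included. Other tools called more genes, and on simulated counts DESeq2 and the exact test also called a larger share of unchanged genes than the quasi-likelihood test did. DESeq2 called *Trpm6*, *Trpv6* and *Calb1* (9.31% of all tested genes), edgeR's likelihood ratio test called *Trpm6* and *Calb1* (7.93%), and edgeR's exact test called *Trpm6* (7.54%). The quasi-likelihood test called *Trpm6* without a filter on low counts (0.351%) and at an FDR below 0.1 (5.15%), and no gene of the set with the replicate number as a block (0.0361%). Without control 2, it called *Trpm6* and *Calb1*, and 5.2% of all tested genes. It also called *Trpv5*, which does not pass the filter with all uteri and was not called in that setting without the filter. *Trpv5* also passed the filter when any 1 of the *Gp130* ecKO uteri was left out, and was not called then.

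**Figure D1:**
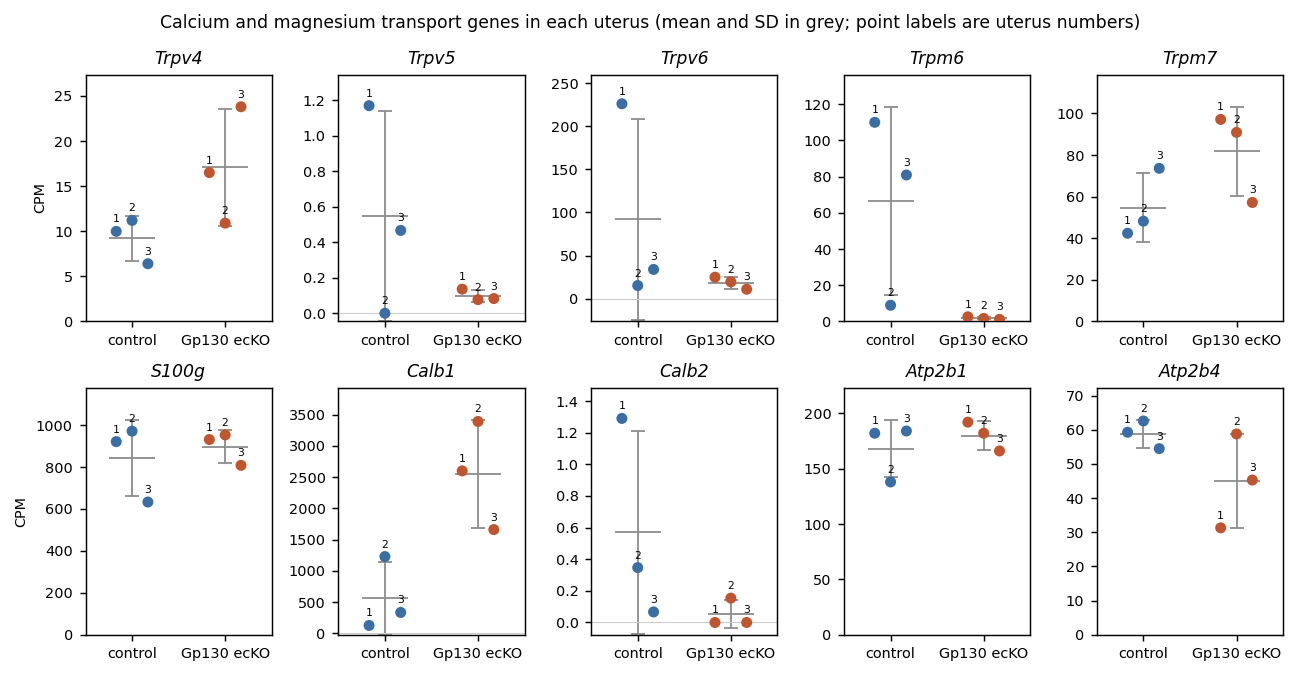
CPM of the 10 genes in each of the 3 control and 3 *Gp130* ecKO uteri, one panel per gene with its own linear axis; points are uteri labelled by number, and grey bars are the mean and SD. *Trpm6* lay at 1.16 to 2.58 CPM in *Gp130* ecKO, below every control uterus, *Calb1* lay above every control uterus, and a single uterus, control 1, stood far above the rest for *Trpv6*.

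**Figure D2:**
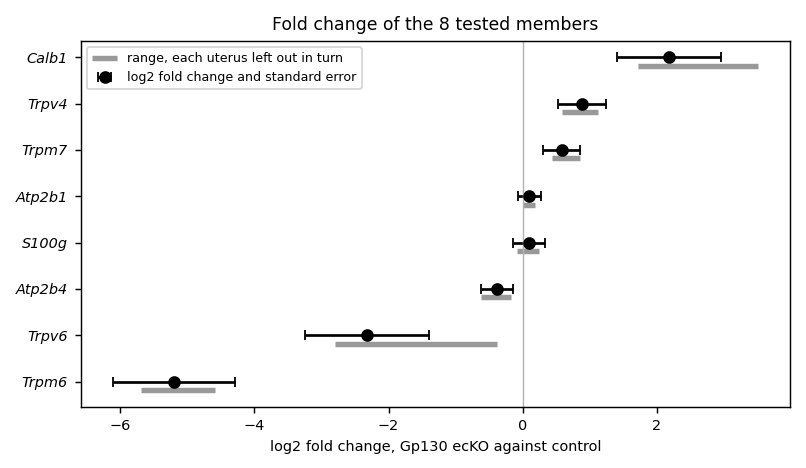
Log2 fold change of the 8 tested genes in *Gp130* ecKO against the control, with the standard error (black) and the range when each uterus was left out in turn (grey). *Trpm6* stayed between −5.69 and −4.59, while the range of *Trpv6* reached −0.38 and that of *S100g* crossed 0.

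*Trpm6* encodes the epithelial magnesium channel with a kinase domain, which in kidney and gut takes up magnesium from the lumen. It had the largest difference of the tested genes in this set. The gene (ENSMUSG00000024727) lies on chromosome 19 of GRCm39 from 18727089 to 18869875 on the forward strand. It had 110.0, 8.95 and 80.9 CPM in controls 1, 2 and 3, against 2.58, 1.69 and 1.16 in the ecKO uteri. The lowest control, control 2, was nearer to the *Gp130* ecKO uteri than to the other controls in CPM, and still above all of them. Behind these values were 2718, 232 and 1213 counts in the controls and 57, 44 and 28 counts in *Gp130* ecKO. The means were 66.6 ± 52.0 CPM and 1.81 ± 0.715 CPM (SD, n = 3 each), a ratio of 36.8. edgeR put the difference at −5.20 on the log2 scale (SE 0.91, unadjusted p = 0.000579, adjusted p = 0.0636 by the quasi-likelihood test), which missed the FDR threshold. An exact two-sided permutation test gave p = 0.1, the smallest that 3 against 3 uteri allow. Without control 2 the log2 fold change was −5.69 (adjusted p = 0.00352 in edgeR), and without control 1 it was −4.59 (adjusted p = 0.158 in edgeR). DESeq2 gave an adjusted p of 7.1e-10, and the exact test of edgeR 3.32e-06. Set against the summed epithelial markers of the same uterus, *Trpm6* was at 38.4, 3.20 and 41.8 CPM per 1000 CPM of markers in the controls, against 0.436, 0.410 and 0.265 in the ecKO uteri. This scale was chosen after the values were seen. The marker sum was itself higher in every ecKO uterus, so a gene at equal CPM comes out lower on it, and its markers differed unequally (*Epcam* log2 difference −0.19, *Wnt7a* 0.17 and *Krt19* 2.19). On this scale every ecKO uterus was below every control for *Trpm6*, *Trpv6*, *S100g*, *Atp2b1* and *Atp2b4*, and the groups overlapped for *Trpv4*, *Trpv5*, *Trpm7*, *Calb1* and *Calb2*. With such a divisor these positions are descriptions only.

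*Trpm7* encodes the closely related channel-kinase found in most cell types. It lies on chromosome 2 (ENSMUSG00000027365, 126633480 to 126718182, reverse strand). It had 42.4, 48.2 and 73.6 CPM in controls 1, 2 and 3, against 97.1, 90.9 and 57.2 in the ecKO uteri. *Gp130* ecKO 3 was below control 3, so the groups overlapped. On the log2 scale the difference was 0.58 (SE 0.28, unadjusted p = 0.0769, adjusted p = 0.244 in edgeR). Per length, the level of *Trpm6* in TPM, the deposited length-scaled unit, was 2.23, 0.146 and 0.967 times that of *Trpm7* in controls 1, 2 and 3, and 0.0267, 0.0186 and 0.0214 times in the ecKO uteri. *Trpm6* thus exceeded *Trpm7* in control 1 only, and in *Gp130* ecKO *Trpm7* made up nearly all of the pair. The sum of both, 30.6, 14.1 and 35.4 TPM in the controls and 21.6, 21.9 and 10.5 TPM in *Gp130* ecKO, overlapped between the groups.

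The 250 bases before the RefSeq transcription start of *Trpm6*, *Trpm7* and *Trpv6* are shown because *Trpm6* and *Trpv6* had the lowest fold changes of the 8 tested genes and *Trpm7* is the paralog of *Trpm6* without such a difference. The sequences come from the RefSeq promoter table for GRCm38.p6, and each matched GRCm39 exactly once, at chr19:18726844-18727093 on the forward strand for *Trpm6*, at chr2:126718182-126718431 on the reverse strand for *Trpm7* and at chr6:41613340-41613589 on the reverse strand for *Trpv6*. They are written 5′ to 3′ in lower case, and capitals mark a match to a searched motif.
Trpm6: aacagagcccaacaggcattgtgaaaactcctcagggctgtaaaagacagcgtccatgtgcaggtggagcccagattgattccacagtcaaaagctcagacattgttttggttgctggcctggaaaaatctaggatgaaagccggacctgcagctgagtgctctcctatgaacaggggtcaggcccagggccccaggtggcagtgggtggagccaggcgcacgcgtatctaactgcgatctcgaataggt
Trpm7: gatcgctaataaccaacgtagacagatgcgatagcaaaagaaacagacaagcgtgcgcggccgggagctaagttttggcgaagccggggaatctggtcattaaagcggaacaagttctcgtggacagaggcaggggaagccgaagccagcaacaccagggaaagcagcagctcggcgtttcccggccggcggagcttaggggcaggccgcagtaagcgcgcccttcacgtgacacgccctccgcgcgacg
Trpv6: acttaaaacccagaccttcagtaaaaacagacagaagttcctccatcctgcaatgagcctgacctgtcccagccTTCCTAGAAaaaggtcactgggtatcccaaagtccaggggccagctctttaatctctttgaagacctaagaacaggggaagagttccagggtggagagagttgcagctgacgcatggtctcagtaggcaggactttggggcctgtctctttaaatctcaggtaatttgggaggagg
These windows were searched for the palindromic letters TTCNNNGAA, a form of the STAT site, TGANTCA, the AP-1 site, the estrogen response element, GGTCA followed after any 3 bases by TGACC, and a form of the progesterone response element, GNACA followed after any 3 bases by TGTNC, where N is any base. Each motif reads the same on both strands. The windows of *Trpm6* and *Trpm7* held none of the 4. The window of *Trpv6* held TTCCTAGAA, which starts 176 bases before the transcription start and is a match to the STAT letters. Of 32851 RefSeq promoter windows of the same length, 7.02% held TTCNNNGAA, 6.75% TGANTCA, 0.387% the progesterone and 0.0639% the estrogen response element. The promoter table held 8 of the 10 genes, and none of the windows of the other 5 (*Trpv4*, *Trpv5*, *S100g*, *Atp2b1* and *Atp2b4*) held any of the 4 motifs.

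*Trpv6* encodes the calcium-selective apical channel that is the entry step of calcium transport in gut and placenta. It lies on chromosome 6 (ENSMUSG00000029868, 41597558 to 41613343, reverse strand), beside its paralog *Trpv5* (41629107 to 41657703). *Trpv6* had 226, 15.2 and 33.9 CPM in controls 1, 2 and 3, against 24.9, 19.5 and 10.9 in the ecKO uteri. Control 1 was far above all others, and control 2 was below *Gp130* ecKO 1 and 2. The highest control was 14.9 times the lowest, against 2.28 times among the *Gp130* ecKO uteri. The estimated log2 difference was −2.32 (SE 0.93, adjusted p = 0.18 by the quasi-likelihood test of edgeR), and it was −0.38 without control 1 (adjusted p = 0.666 in edgeR). DESeq2 placed *Trpv6* below an FDR of 0.05 (adjusted p = 0.0375). The exact permutation test gave p = 0.3. The last part of *Trpv6* overlaps *Ephb6* on the opposite strand, and 21.7% of the stretches of 75 bases in *Trpv6* transcripts also occur there. *Ephb6* had 560, 245 and 124 counts in controls 1, 2 and 3, against 196, 214 and 144 in the ecKO uteri. *Trpv6* itself had 5597, 395 and 508 counts in the controls, against 550, 507 and 263. Whether strand was used in counting is not given in the sources used here, and the part of *Ephb6* reads in the values of *Trpv6* was not tested.

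*Trpv5*, the calcium-selective channel of the distal kidney tubule (ENSMUSG00000036899), was near the limit of detection. It had 29, 0 and 7 counts in controls 1, 2 and 3, against 3, 2 and 2 in the ecKO uteri. Control 2, with no count in a library of 25906443, was below every *Gp130* ecKO uterus, and a count of 3 corresponds to between 0.115 and 0.2 CPM in these libraries. In the quasi-likelihood fit of all genes with at least 1 count, its log2 difference was −2.41 (SE 1.11, adjusted p = 0.31 in edgeR). That fit gave −0.82 without control 1 (adjusted p = 0.74) and −3.04 without control 2 (adjusted p = 0.0657), so the value rests on control 1. In the filtered table without control 2 *Trpv5* passed through the counts of the other controls, and the adjusted p of 0.0413 there is no support for a difference. *Trpv4*, a calcium-permeable channel opened by cell swelling, heat and mechanical force (ENSMUSG00000014158, chromosome 5, 114760209 to 114796914), was measured at 9.99, 11.2 and 6.40 CPM in controls 1, 2 and 3, against 16.5, 10.9 and 23.8 in the ecKO uteri. *Gp130* ecKO 2 was below control 2, and the other *Gp130* ecKO uteri were above every control. In TPM the groups did not overlap, with 2.84 to 4.63 in the controls and 5.21 to 9.35 in the ecKO uteri. Its log2 difference was 0.88 (SE 0.36, unadjusted p = 0.0407, adjusted p = 0.183 in edgeR).

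*Calb1* encodes calbindin-D28k, a cytoplasmic calcium buffer of kidney, gut and uterine epithelium. It was higher in every *Gp130* ecKO uterus than in every control. The gene (ENSMUSG00000028222) lies on chromosome 4 from 15881155 to 15908085. It had 126, 1228 and 334 CPM in controls 1, 2 and 3, against 2599, 3390.0 and 1660.4 in the ecKO uteri. Control 2 was again the control nearest to the *Gp130* ecKO uteri. Control uteri averaged 563 ± 585 CPM and ecKO uteri 2549.9 ± 866 CPM (SD, n = 3 each), 4.53 times as much. In log2 units the difference was 2.18 (SE 0.78, unadjusted p = 0.025, adjusted p = 0.15 by the quasi-likelihood test of edgeR), with p = 0.1 in the exact permutation test. Without control 2 it was 3.51 (adjusted p = 0.0288 in edgeR), and without control 1 it was 1.72 (adjusted p = 0.232 in edgeR). The adjusted p was 0.0169 with DESeq2 and 0.046 with edgeR's likelihood ratio test. Per 1000 CPM of summed epithelial markers *Calb1* was at 44.1, 439 and 173 CPM in the controls and at 439, 821 and 379 CPM in *Gp130* ecKO, and on that scale the groups overlapped.

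*S100g* encodes calbindin-D9k, the small calcium carrier of gut and uterus. Per length, in TPM, it was the most abundant of the set in every uterus, and its levels were close together. The gene (ENSMUSG00000040808) lies on the X chromosome from 161744988 to 161747617. It had 921, 971 and 633 CPM in controls 1, 2 and 3, against 931, 953 and 808 in the ecKO uteri. The lowest and the highest value were both from control uteri. The difference was 0.09 in log2 units (SE 0.24, adjusted p = 0.831 in edgeR), and it was −0.08 without control 3. Per length, *S100g* was 58.3, 7.54 and 19.0 times as high as *Calb1* in TPM in controls 1, 2 and 3, and 3.21, 2.42 and 4.68 times in the ecKO uteri. The ratio was lower in every *Gp130* ecKO uterus than in every control. *Calb2*, which encodes calretinin (ENSMUSG00000003657), had 32, 9 and 1 counts in controls 1, 2 and 3, against 0, 4 and 0 in the ecKO uteri. *Gp130* ecKO 2 was above control 3, and most of the control counts came from control 1 (log2 difference −3.34, adjusted p = 0.203 in edgeR's quasi-likelihood fit of all genes with at least 1 count, −1.97 with adjusted p = 0.555 without control 1, and −6.78 with adjusted p = 0.286 without *Gp130* ecKO 2, the only ecKO uterus with counts).

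Both pumps of the set overlapped between the groups. *Atp2b1*, which encodes the widely expressed pump PMCA1 (ENSMUSG00000019943, chromosome 10, 98750268 to 98862488), was measured at 182, 138 and 184 CPM in controls 1, 2 and 3, against 192, 182 and 166 in the ecKO uteri. *Gp130* ecKO 1 had the highest value and control 2 the lowest, and the difference was 0.10 in log2 units (SE 0.17, adjusted p = 0.74 in edgeR). *Atp2b4*, which encodes PMCA4 (ENSMUSG00000026463, chromosome 1, 133627195 to 133728923), was measured at 59.3, 62.6 and 54.5 CPM in controls 1, 2 and 3, against 31.3, 58.8 and 45.3 in the ecKO uteri. *Gp130* ecKO 2 lay within the control values and the other *Gp130* ecKO uteri below them. The difference was −0.38 in log2 units (SE 0.24, adjusted p = 0.35 in edgeR). Both genes are also expressed outside epithelium.

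**Figure D3:**
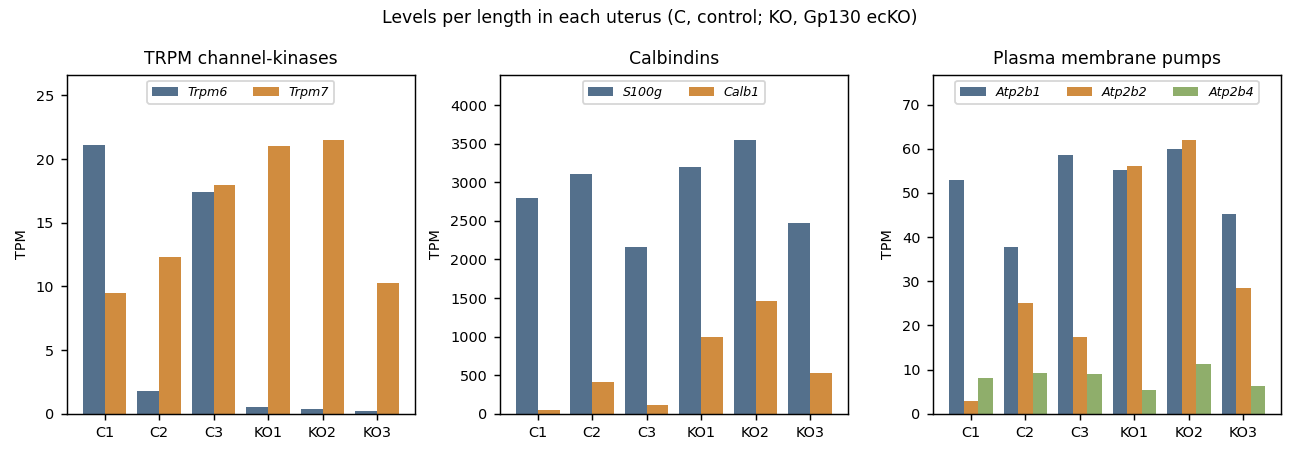
Deposited TPM of the channel-kinases (left), the calbindins *S100g* and *Calb1* (middle) and the plasma membrane pumps with *Atp2b2* (right) in each uterus, as bars from 0. *Trpm6* is near 0 beside *Trpm7* in the 3 *Gp130* ecKO uteri, *S100g* is the taller bar in all 6, and *Atp2b2* ranges from 4.45% of the 3 pumps in control 1 to 48.0% in *Gp130* ecKO 1.

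Ordered by mean TPM in the control, the set ran from *S100g* (2694 ± 482 TPM, SD, n = 3) through *Calb1* (192 ± 194), *Atp2b1* (49.7 ± 10.8), *Trpv6* (40.5 ± 50.0), *Trpm6* (13.4 ± 10.2), *Trpm7* (13.3 ± 4.32), *Atp2b4* (8.79 ± 0.593) and *Trpv4* (3.79 ± 0.901) to *Calb2* (0.553 ± 0.563) and *Trpv5* (0.22 ± 0.231). The values of neighbours from *Calb1* to *Trpm7* overlapped between uteri, as did those of *Calb2* and *Trpv5*, whereas *S100g* was above *Calb1* in all uteri. In *Gp130* ecKO the first 3 kept their places, with *S100g* at 3069 ± 551 TPM, *Calb1* at 995 ± 469 TPM and *Atp2b1* at 53.5 ± 7.55 TPM (SD, n = 3), and here their ranges did not overlap. *Trpm7* (17.6 ± 6.32 TPM), *Trpv6* (9.07 ± 3.86 TPM), *Atp2b4* (7.64 ± 3.09 TPM) and *Trpv4* (7.27 ± 2.07 TPM) followed, each overlapping the next. *Trpm6* came after them at 0.393 ± 0.17 TPM, below every value of *Trpv4*.

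Control uteri differed more among themselves than *Gp130* ecKO uteri did for *Trpm6*, *Trpv6* and *Calb1*. The SD of log2(CPM + 0.5) was 1.93 in the control and 0.45 in *Gp130* ecKO for *Trpm6*, 1.98 and 0.59 for *Trpv6*, and 1.64 and 0.52 for *Calb1*. The spread was also larger in the control for *S100g* (0.34 and 0.13) and *Atp2b1* (0.23 and 0.11), equal for *Trpm7* (0.41 and 0.41), and larger in *Gp130* ecKO for *Trpv4* (0.40 and 0.55) and *Atp2b4* (0.10 and 0.45). With 3 uteri in a group these spreads are descriptions, and their difference was not tested. In control 1 *Trpm6* and *Trpv6* had their highest values and *Calb1* its lowest. In control 2 *Trpm6* and *Trpv6* had the lowest values of the controls and *Calb1* the highest.

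The profile of *Trpm6* over the 6 uteri was set against 14755 other tested genes with a mean of at least 1 CPM, by the root mean square difference of log2(CPM + 0.5) after centring each gene on its own mean. The nearest was *Slc26a6*, an apical anion exchanger, with a difference of 0.42, where the profile of *Trpm6* itself had a root mean square of 2.43. It had 129.9, 14.7 and 99.1 CPM in controls 1, 2 and 3, against 2.03, 1.77 and 2.86 in the ecKO uteri. *Lgr5*, a receptor for R-spondins (0.57), *1110002E22Rik* (0.59), *Osmr*, the oncostatin M receptor that pairs with GP130 (0.64), and *Nupr1*, a stress-induced nuclear protein (0.65), followed. In all 5 the lowest control was control 2 and every *Gp130* ecKO uterus was below it. Their log2 fold changes ran from −5.19 for *Slc26a6* to −3.78 for *Osmr*, with adjusted p between 0.0548 and 0.0821 (edgeR's quasi-likelihood test). The comparison was made on 6 uteri of 2 groups, so genes that differ between the groups in this direction come first by construction.

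**Figure D4:**
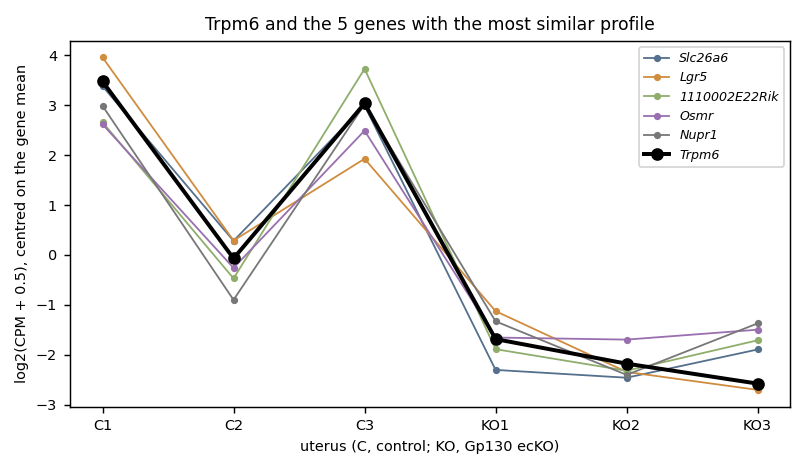
Log2(CPM + 0.5) of *Trpm6* (black) and the 5 genes with the nearest profiles in each of the 6 uteri, each gene centred on its mean; the lines join values of 1 gene and imply no order of uteri. Controls 1 and 3 lie high, control 2 lies between, and the *Gp130* ecKO uteri lie low in all 6 genes.

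Other genes of calcium and magnesium transport were described from 4 lists. Of 14 other calcium pumps and exchangers, 10 were tested and had a median log2 fold change of 0.68, where the median of all tested genes was −0.05. Of these 10, 0 passed the FDR threshold, 4 had an unadjusted p below 0.05, all higher, and 3 did not overlap between the groups. When single uteri were left out, 1 (without control 3) to 5 (without control 2) were higher at that p. Without *Gp130* ecKO 3, 2 were higher and 1 lower. The median then lay between 0.58 (without *Gp130* ecKO 3) and 0.85 (without control 1 or control 2). Over all tested genes, with all uteri, 25% had such a p, 31.3% did not overlap and DESeq2 called 9.31%. Without control 2 the quasi-likelihood test called 5.2% of the 17142 genes tested then. The counts of this and the other lists are to be read beside these shares. With DESeq2 1 of the 10 was called, and without control 2 the quasi-likelihood test called 2, *Atp2c1* (1.01, adjusted p = 0.0469) and *Atp2c2* (3.11, adjusted p = 0.0384). *Atp2c1*, the calcium and manganese pump of the Golgi, had 92.8, 109 and 83.1 CPM in controls 1, 2 and 3, against 206, 164 and 150.4 in the ecKO uteri. The log2 difference was 0.87 (SE 0.19, adjusted p = 0.0769 by the quasi-likelihood test of edgeR). *Atp2c2*, its relative of secretory epithelia, had 3.76, 33.1 and 11.8 CPM in controls 1, 2 and 3, against 95.8, 39.8 and 58.2 in the ecKO uteri (log2 difference 1.99, adjusted p = 0.152 in edgeR). *Atp2a3*, a pump of the endoplasmic reticulum, overlapped between the groups (log2 difference 1.35, adjusted p = 0.181 in edgeR). *Atp2b2*, which encodes the plasma membrane pump PMCA2 and was singled out after its values were seen, had 16.3, 138 and 84.9 CPM in controls 1, 2 and 3, against 267, 253 and 163 in the ecKO uteri. All 3 ecKO uteri were above all 3 controls, with an estimated difference of 1.51 on the log2 scale (SE 0.65, adjusted p = 0.199 in edgeR, and 2.21 with adjusted p = 0.0935 without control 2). As with *Calb1*, control 1 was lowest and control 2 highest of the controls. Per length, *Atp2b2* made up 4.45%, 34.7% and 20.5% of the summed TPM of *Atp2b1*, *Atp2b2* and *Atp2b4* in controls 1, 2 and 3, against 48.0%, 46.5% and 35.6% in the ecKO uteri.

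Of 24 magnesium transporters and their regulators 21 were tested, with a median log2 fold change of 0.25, which lay between 0.05 (without *Gp130* ecKO 1) and 0.24 when single uteri were left out. Of the 21 tested with all uteri, 0 passed the FDR threshold with the quasi-likelihood test and 0 were called with DESeq2. At an unadjusted p below 0.05, 3 were higher and 4 lower, and 10 did not overlap between the groups, 5 in each direction. Without control 1, 1 was higher and 1 lower at that p. Without control 2, 3 of the 22 tested then were higher and 5 lower, with *Cldn19* among the lower ones. Without control 2 the quasi-likelihood test called 1 of the 21, *Tmem94* (log2 difference 1.35, adjusted p = 0.0386, against 0.78 and 0.241 with all uteri). It also called *Cldn19*, a claudin of magnesium-transporting tight junctions, which was not among the 21 and did not pass the filter with all uteri (−4.89, adjusted p = 0.0164). It passed through the controls where it is high, so this call is no support for a difference, and with all uteri and no filter the adjusted p was 0.0823 (log2 difference −4.38). *Cldn19* also passed the filter when any 1 of the *Gp130* ecKO uteri was left out, and was not called then. *Tmem94* and *Cldn19* were named after their values were seen. *Slc41a1*, a sodium-dependent magnesium exporter, had 44.6, 34.4 and 39.6 CPM in controls 1, 2 and 3, against 24.9, 28.0 and 25.9 in the ecKO uteri (log2 difference −0.59, adjusted p = 0.115 in edgeR). *Cnnm4*, a basolateral magnesium transporter of epithelia, had 16.8, 28.5 and 23.0 CPM in controls 1, 2 and 3, against 59.9, 42.8 and 31.3 in the ecKO uteri (log2 difference 0.97, adjusted p = 0.118 in edgeR). *Ptp4a3*, a phosphatase that binds CNNM proteins, had 30.0, 35.3 and 44.5 CPM in controls 1, 2 and 3, against 11.8, 22.5 and 22.4 in the ecKO uteri (log2 difference −0.95, adjusted p = 0.121 in edgeR). None of the 3 overlapped between the groups.

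Of 22 regulators of TRPV5, TRPV6 and calcium transport 16 were tested, with a median log2 fold change of −0.10, which was 0.12 without control 1 and 0.02 without *Gp130* ecKO 2. Of these, 0 passed the FDR threshold, 1 was higher and 2 lower at an unadjusted p below 0.05, and DESeq2 called 2, as did the quasi-likelihood test without control 2. *Pthlh*, the gene of parathyroid hormone-related protein, had 4.57, 3.12 and 11.7 CPM in controls 1, 2 and 3, against 1.31, 1.31 and 1.29 in the ecKO uteri (log2 difference −2.28, adjusted p = 0.0877 in the quasi-likelihood test of edgeR and 0.0396 without control 2). *S100a10*, whose protein carries TRPV5 and TRPV6 to the plasma membrane together with annexin A2, had 299.9, 311 and 511 CPM in controls 1, 2 and 3, against 181, 178 and 256 in the ecKO uteri (log2 difference −0.87, adjusted p = 0.121 in edgeR). *Stc1*, which encodes the calcium-regulating hormone stanniocalcin 1, had 3.40, 28.8 and 5.67 CPM in controls 1, 2 and 3, against 70.9, 79.8 and 28.5 in the ecKO uteri (log2 difference 2.23, adjusted p = 0.15 in edgeR, and 3.77 with adjusted p = 0.0198 without control 2). *Gp130* ecKO 3 was just below control 2, so the groups of *Stc1* overlapped. The last list held 19 other genes of cation entry, which are channels and the calcium sensors *Stim1* and *Stim2*. Of these, 16 were tested, with a median log2 fold change of −0.24. It was −0.24 to −0.08 when single uteri were left out, nearest to 0 without *Gp130* ecKO 3, and −0.10 without control 3. In this list 0 passed the FDR threshold, *Stim2* was higher and *Pkd2*, a cation channel of primary cilia, was lower at an unadjusted p below 0.05 (log2 difference −0.54 for *Pkd2*, adjusted p = 0.173 in edgeR), and DESeq2 called 0. *Stim2*, a calcium sensor of the endoplasmic reticulum, averaged 46.2 ± 0.891 CPM in control uteri and 61.7 ± 6.94 CPM in ecKO uteri (SD, n = 3 each), with a log2 difference of 0.42 (adjusted p = 0.159 in edgeR).

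**Figure D5:**
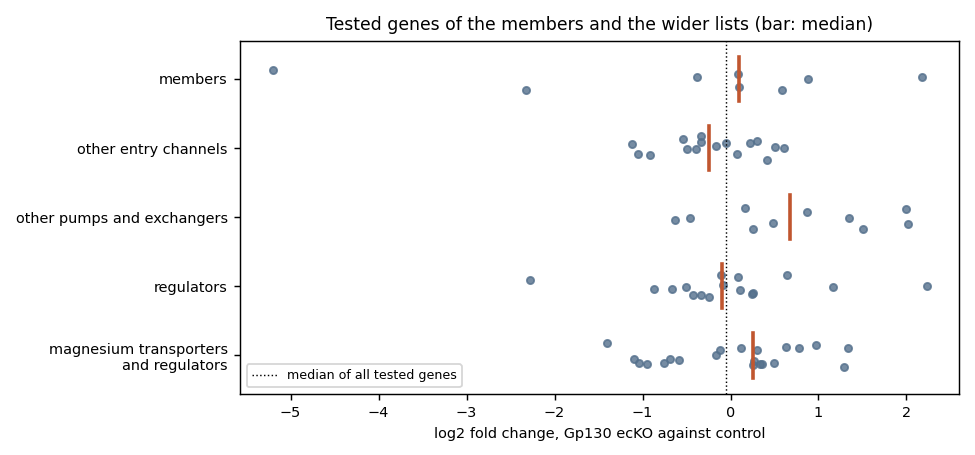
Log2 fold change of each tested gene in *Gp130* ecKO against the control for the 8 tested members and the 4 wider lists; red bars are list medians and the dotted line is the median of all tested genes. *Trpm6* is the leftmost point of all lists, and the other pumps and exchangers have the median farthest to the right.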

How the data were processed

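RNA was sequenced from 3 control and 3 *Gp130* ecKO uteri as poly(A) libraries of a kit that keeps strand, with single reads of 75 bases. Reads were trimmed with fastp v0.23.2, cleared of ribosomal RNA with SortMeRNA, mapped to GRCm39 with STAR v2.7.10a and counted per gene with RSEM v1.3.3 by the authors, who deposited for each uterus the expected count of each gene, not normalized, and the TPM, scaled for length and depth. Expected counts were rounded, filtered with filterByExpr (16605 genes) and scaled by TMM. The groups were compared with edgeR 4.0.16 (R 4.3.3; quasi-likelihood F test without the legacy setting, Benjamini-Hochberg adjustment, FDR below 0.05 and more than 2-fold), with its exact and likelihood ratio tests, DESeq2 1.42.0 and limma 3.58.1 as alternatives. Standard errors (SE) were derived from the estimate and its F statistic. TPM served to compare levels between genes. Members and lists were chosen with earlier results of these data known. The genes named are the 10 members, the 3 tested genes with the smallest p in each wider list (1 of the entry channels is not reported here), and the 5 nearest to the member with the largest change. *Atp2b2*, *Tmem94* and *Cldn19* were named outside this rule, after their values were seen, and *Il6st* and markers serve as checks. Symbols and coordinates came from GENCODE M39, which held 56017 of the 56748 identifiers. The tests were checked on simulated counts with known changes, where DESeq2 and the exact test recovered more changed genes than the quasi-likelihood test and also called more unchanged ones, in number and as a share of their calls. No pair of libraries within a group had nearly identical counts, and pairs across the groups were not compared in this way. Of the wider lists and markers, *Pdzd3* matched no symbol, and of the 2 identifiers of *Ptp4a1* the more abundant was used.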

Additional observations from a re-analysis of the deposited data

How the results depend on the processing

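The fold changes of *Trpv4*, *Trpv6*, *Trpm6*, *Trpm7*, *Calb1*, *Atp2b1* and *Atp2b4* kept their direction under all 19 alternatives, while *S100g* went from 0.09 to −0.08 without control 3 and to 0.24 without control 2. *Trpm6* passed an FDR of 0.05 under 5 alternatives, with a log2 fold change of −5.20 in edgeR's exact and likelihood ratio tests, −5.19 with DESeq2 and −5.16 without a filter on low counts, where 1 of the 10 genes was called, and with control 2 left out. Leaving out single uteri gave −5.69 to −4.59, and limma gave −2.91 on log2(TPM + 1), a scale that compresses low values. Its adjusted p lay between 7.1e-10 and 0.18 under the 19 alternatives. *Calb1* passed with the likelihood ratio test (2.18), with DESeq2 (2.19) and without control 2, and lay between 1.72 and 3.51 with each uterus left out (adjusted p from 0.0169 to 0.319 over all alternatives). *Trpv6* passed with DESeq2 only (−2.31; adjusted p from 0.0375 to 0.666). The number of the 10 genes called was 0 in the quasi-likelihood test, 1 in the exact test, 2 in the likelihood ratio test, 3 with DESeq2, 1 at an FDR of 0.1, and 0 to 3 when single uteri were left out, the highest without control 2, *Trpv5* included. Over all genes the 26 calls became 7 with the legacy form, 1252 with the exact test, 1317 with the likelihood ratio test, 1546 with DESeq2, 105 without a filter, 78 and 85 by limma on TPM with a pseudocount of 1 and 0.1, 855 at an FDR of 0.1, and 1 to 892 with each uterus left out, the highest without control 2. The median log2 fold change of all tested genes was −0.05, and −0.11 with upper quartile factors.

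The deviations from the group means correlated at 0.104, 0.069 and −0.196 between uteri that share the numbers 1, 2 and 3. Between uteri of unequal numbers they correlated at −0.311 to 0.22. No pairing by number was seen, and with 3 uteri per group these values cannot decide whether the uteri were paired. With the replicate number as a block 6 genes were called over the whole table and 0 of the 10 genes here. *Trpv5* and *Calb2* had at most 32 counts in any library, which limits what can be said of them.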
